A study of Mus musculus with 52 samples.

Results

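The promoters of 10 Sox genes that lie outside the core pluripotency network were examined in mouse embryonic stem cells (mESCs). They comprise the SoxC genes Sox4, Sox11 and Sox12, the SoxD genes Sox5, Sox6 and Sox13, the SoxE genes Sox8, Sox9 and Sox10, and the SoxB2 gene Sox21. They were chosen by gene symbol from the deposited promoter tables, with earlier results of these data known, because Sox12 had become less accessible after loss of the long KDM2 forms. Matching of RefSeq identifiers gave 15 promoter intervals of 20633, 6 of them alternative start sites of Sox6.

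Calibrated ATAC-seq (cATAC-seq) was used to measure accessibility. In this assay the Tn5 transposase cuts into open DNA and Drosophila SG4 cells added to each sample set a common scale. The cells came from 4 conditional lines that all carry a tamoxifen-inducible Cre recombinase at the Rosa26 locus. In Kdm2a/b-JmjC fl/fl cells, tamoxifen deletes the exons of the demethylase domain in both genes, which removes the long forms of KDM2A and KDM2B and leaves their short forms. In Kdm2a/b-CXXC fl/fl cells it deletes from both proteins the ZF-CxxC domain, through which they bind non-methylated CpG DNA, and it does so from KDM2A alone in Kdm2a-CXXC fl/fl cells and from KDM2B alone in Kdm2b-CXXC fl/fl cells. Untreated cells of the same line were the control for cells given 4-hydroxytamoxifen at 800 nM for 96 h, so the controls carry the floxed alleles and the recombinase but saw no drug. There were 4 untreated and 4 treated libraries in Kdm2a/b-CXXC and 3 of each in the other lines, 26 in all, with 1.49 to 3.03 M reads over promoters (M, 1000000). The Kdm2a-CXXC and Kdm2a/b-CXXC lines were raised from targeted clones. The study's methods call the libraries of a group biological replicates and say no more of how they were grown, and p-values measure the spread between these libraries. In untreated cells the promoters of stem cell marker genes lay at a median percentile of 70.7 to 82.9 among all promoters. The lowest of them lay at 17.3 to 19.6 in the 4 lines. The promoters of neural markers had medians of 56.6 to 64.5, and those of primitive endoderm markers 42.3 to 48.3. The medians were 35.0 to 41.2 for trophoblast, 34.7 to 40.4 for mesoderm and 33.2 to 37.0 for fibroblast markers.

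SOX proteins bind DNA through an HMG box and are grouped by sequence. SoxC proteins are transcriptional activators used in neuronal and mesenchymal progenitors. SoxD proteins lack an activation domain of their own and often act beside SoxE proteins, as SOX5 and SOX6 do with SOX9 in cartilage. SOX9 also directs testis formation, SOX10 is a regulator of neural crest, glia and melanocytes, and SOX21 is a repressor that opposes SoxB1 activators in neural progenitors. Many developmental regulators of this kind have CpG island (CGI) promoters, the elements to which KDM2 proteins bind in mESCs.

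The promoter intervals were 400 bp long in mm10 and were centred on the annotated start, with the exception of Sox4, whose start lay 17 bp from the centre, and Sox9, where it lay 1 bp away. The sequence just upstream of the start is given for the 3 SoxC promoters and for 1 internal Sox6 start, because these show the range from a dense CGI to a promoter with almost no CpG. They are from the GRCm38 reference, read 5′ to 3′ on the coding strand, which is the minus strand for all 4, and CpG dinucleotides are in capitals.
Sox12, chr2:152398047-152398246: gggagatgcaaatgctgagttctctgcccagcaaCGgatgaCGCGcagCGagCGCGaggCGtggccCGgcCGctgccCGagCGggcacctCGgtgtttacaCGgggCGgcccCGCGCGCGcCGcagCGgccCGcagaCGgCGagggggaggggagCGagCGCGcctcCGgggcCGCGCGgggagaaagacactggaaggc
Sox11, chr12:27342719-27342918: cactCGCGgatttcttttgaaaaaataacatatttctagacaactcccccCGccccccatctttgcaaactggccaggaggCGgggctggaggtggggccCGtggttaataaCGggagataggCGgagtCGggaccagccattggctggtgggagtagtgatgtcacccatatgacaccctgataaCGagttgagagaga
Sox4, chr13:28953700-28953882: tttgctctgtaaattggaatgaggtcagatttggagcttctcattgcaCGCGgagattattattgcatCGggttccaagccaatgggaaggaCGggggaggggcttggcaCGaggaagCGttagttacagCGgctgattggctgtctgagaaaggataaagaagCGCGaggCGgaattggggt
Sox6 internal start NM_011445, chr7:115995087-115995286: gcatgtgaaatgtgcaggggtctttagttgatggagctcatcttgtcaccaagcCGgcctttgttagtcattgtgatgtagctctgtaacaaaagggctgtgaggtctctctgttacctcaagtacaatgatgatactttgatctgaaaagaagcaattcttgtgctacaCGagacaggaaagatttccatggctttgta
The Sox12 stretch held 30 CpGs, against 9 for Sox11, 10 for Sox4 and 2 for the Sox6 start.

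Over the full 400 bp, the intervals ranged from 2 to 62 CpGs, around a median of 24 for all promoters. Sox12 (chr2:152397847-152398246) had 62 CpGs and a GC content of 76.5%, and Sox13 (chr1:133424013-133424412) had 57 and 77.8%. Sox11 (chr12:27342519-27342918) had 34, Sox21 (chr14:118236831-118237230) 33, Sox8 (chr17:25570487-25570886) 31 and Sox9 (chr11:112782010-112782409) 20 CpGs. These 6 intervals were CpG-rich, that is, their GC content was 50% or more and their ratio of observed to expected CpGs 0.6 or more, as in 54.6% of all promoters. Sox4 (chr13:28953483-28953882) had 15 CpGs and a ratio of 0.576, just under that limit. Sox5 (chr6:144209369-144209768) had 6 CpGs, and none of the 6 Sox6 intervals, on chromosome 7, was CpG-rich. Downstream of the start, 10 intervals lay wholly in the first exon, and so did Sox4. At the other 4, all starts of Sox6, the first exon ended within the interval and the rest was intron.

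Short sequence motifs were counted on both strands of these intervals, overlapping matches included. The GC box core GGGCGG was in 5 of the 15 intervals and in 56.3% of all promoters. Sox12 and the NM_001025560 start of Sox6 had 3 copies each. The core CCAAT was in 9 intervals and in 40% of all promoters. TATAAA was found in 1 interval, that of the NM_011445 start of Sox6, and in 10.4% of all promoters. The upstream stretch printed above does not hold this match. ACAAAG, a core of SOX-type binding sites, was in 7 intervals and in 19.4% of all promoters. These 7 were Sox5, Sox8 and 5 of the 6 Sox6 starts. The related core ACAATG was in Sox12 and in the NM_011445 start of Sox6, and in 11.1% of all promoters. These matches describe the letters only.

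In untreated cells the Sox promoters fell into a more and a less accessible set. Values are reads in the interval divided by the spike-in size factor of the library (calibrated reads). They are comparable within a line but not between lines, which were calibrated separately. In all 4 lines 7 intervals were above the median promoter, namely those of Sox4, Sox8, Sox9, Sox11, Sox12, Sox13 and Sox21, and the other 8, those of Sox5, Sox6 and Sox10, were below it.

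Sox12, a SoxC gene whose roles overlap with those of Sox4 and Sox11, had the most accessible of these promoters in 14 of 26 libraries and lay at the 72.6 to 87.1 percentile of all promoters in untreated cells. In untreated Kdm2a/b-JmjC cells it held 175, 197 and 187 calibrated reads, above every other Sox promoter in that group. The next 5, Sox8, Sox21, Sox9, Sox4 and Sox11, had means of 129.6, 127, 123, 113 and 104 and overlapped with their neighbours in this order. Sox13, a SoxD gene studied in T cells, followed at 90.3 ± 9.22 (SD, n = 3), below all 3 Sox11 libraries. It had almost as many CpGs as Sox12 but lay at the 54.2 to 60.1 percentile.

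Sox10 was the highest of the less accessible set in this line at 36.4 ± 5.31 calibrated reads (SD, n = 3), and Sox5 had 13.0 ± 3.74 (SD, n = 3). From Sox10 downwards each neighbouring pair overlapped. In each of the 4 lines 11 or 12 of the 14 neighbouring pairs overlapped, so that only the coarse order is separated from the spread between libraries.

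**Figure D1:**
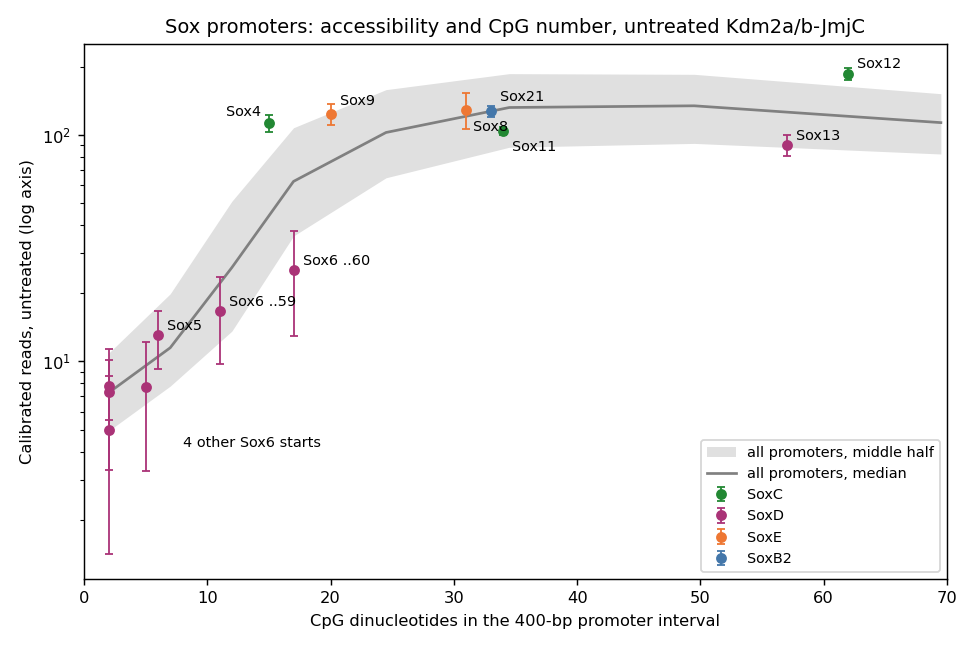
Mean calibrated reads in untreated Kdm2a/b-JmjC cells (log axis, bars SD, n = 3) against the number of CpGs in each of 14 Sox promoter intervals (Sox10 is not drawn), coloured by Sox group, with the median and middle part (first to last quartile) of all promoters in grey; Sox6 ..59 and ..60 are its starts NM_001025559 and NM_001025560. Sox12, with 62 CpGs and 186 calibrated reads, lies above the grey band, and the Sox6 starts lie at its lower left.

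Across the 15 intervals the untreated level rose with the number of CpGs, with Spearman's rho between 0.867 and 0.903 in the 4 lines. This is a description over intervals that share libraries, 6 of which belong to the same gene. The same relation ran through all promoters. In untreated Kdm2a/b-JmjC cells, the median promoter had 7.27 calibrated reads with under 5 CpGs, 62.4 with 15 to 19 and 132 with 30 to 39. Sox4 and Sox9 were more accessible than most promoters of their CpG number, as the plot against CpG number shows. The upper quartile was 108 calibrated reads for promoters with 15 to 19 CpGs, against 113 for Sox4.

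Sox6, a SoxD gene of cartilage, muscle and red blood cell development, was listed with 6 starts, and these differed in accessibility. The first start, NM_001025559 (chr7:116038545-116038944), held between 7 and 31 reads in a library, with a median of 19. The next, NM_001025560 (chr7:116030848-116031247), lay 7.7 kb downstream and held between 19 and 52 reads, with a median of 30. It was the most accessible Sox6 start in 22 of 26 libraries.

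The other 4 starts lay 43.7, 193, 214 and 237 kb downstream of the first, inside the gene. Their medians were between 6 and 9 reads per library. In 21 of 26 libraries both upstream starts held more calibrated reads than every internal start. The internal starts had between 2 and 5 CpGs, and in all 26 libraries the lowest Sox interval was one of them. At this depth they could hardly be followed. Of these 4, NM_011445 passed the filter on low counts in no line, NM_001277327 and NM_001277328 in 1 line each and NM_001277326 in 2 lines. They remain in the counts of intervals but seldom in the tests.

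**Figure D2:**
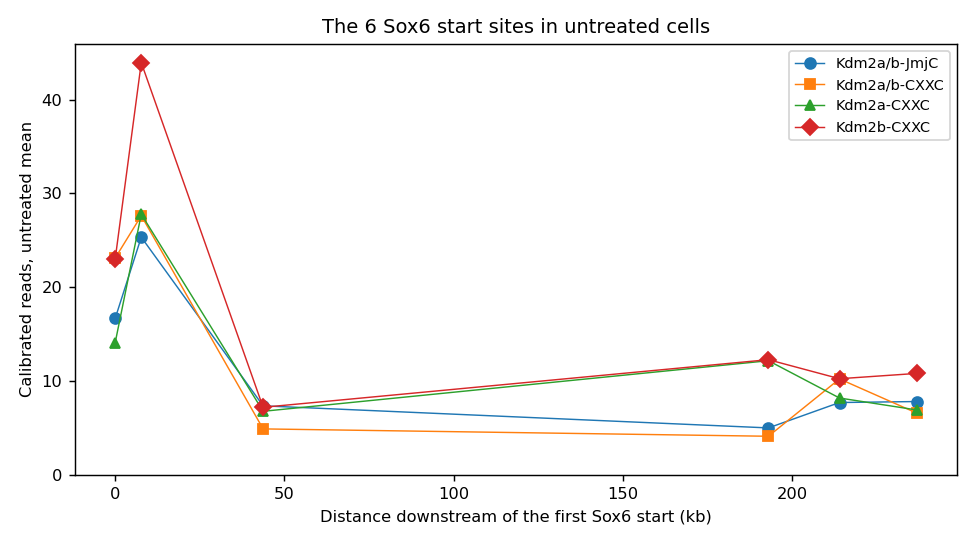
Mean calibrated reads in untreated cells of each line (symbols) at the 6 Sox6 starts, placed by their distance downstream of the first start in kb. Accessibility is highest at the start 7.7 kb downstream, with means between 25.3 and 43.9, and 12.3 or lower at the 4 internal starts.

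The comparison of tamoxifen with untreated cells asked, for each line, whether loss of KDM2 function changed accessibility at these promoters. Fold changes are on the log2(calibrated reads + 1) scale and were fitted with limma over all promoters that passed the filter. Calls required an adjusted p under 0.05 (Benjamini-Hochberg) together with a change of more than 1.4-fold. Calibration also moves all promoters of a library together, so values scaled to the bulk of promoters in each library (TMM scaling) are given beside the calibrated ones.

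The fall of Sox12 in Kdm2a/b-JmjC was known when these genes were chosen, so the values of this line are given as a description, with no p-values. The 3 untreated libraries held 175, 197 and 187 calibrated reads and the 3 treated ones 124, 103 and 113. All treated libraries were below all untreated ones. The mean fell from 186 ± 10.9 to 113 ± 10.7 (SD, n = 3 each), a log2 fold change of -0.72 (SE 0.15), and 2.37% of tested promoters had a lower value. With TMM scaling it was -0.51 (SE 0.14). Of the 11 Sox intervals fitted in this line 1, Sox12, passed both thresholds, as did 0.0757% of all promoters. That Sox12 passed is what the genes were chosen on and supports nothing here. It did not pass with TMM or median-of-ratios scaling, with DESeq2, or when untreated replicate 1 or 2, or tamoxifen replicate 2 or 3, was left out, and its log2 fold change then lay between -0.51 and -0.76.

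The promoters of Sox10, Sox9 and Sox4 changed by more than the threshold on the fold in this line but did not pass that on the adjusted p. Sox10 had 41.8, 36.3 and 31.2 calibrated reads in untreated and 18.2, 18.0 and 13.3 in treated libraries, without overlap. Its log2 fold change, -1.10 (SE 0.33), was larger than that of Sox12 but came from fewer reads. Sox9 had 110.7, 123 and 137 in untreated and 92.9, 68.1 and 82.9 in treated libraries, also without overlap, at -0.60 (SE 0.18).

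Sox4 had 123, 112 and 104 calibrated reads without treatment and 108, 83.8 and 40.9 after tamoxifen. The groups overlapped, and 1 treated library was far below the others. Its log2 fold change was -0.64 (SE 0.19) with all libraries and -0.24 without tamoxifen replicate 3. Without tamoxifen replicate 1, the highest treated library at each of them, the promoters of Sox4, Sox9, Sox10 and Sox12 all passed both thresholds, but so did 607 of 17920 promoters, against 13 of 17174 with all libraries.

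The remaining tested intervals were between -0.22 and 0.21 in this line. Sox11, a close relative of Sox4, had 107, 106 and 99.9 calibrated reads in untreated and 119.6, 75.2 and 113 in treated libraries, so that the treated range enclosed the untreated one (-0.06, SE 0.18). Sox21 was at 0.04 (SE 0.16), Sox13 at -0.19 (SE 0.19), Sox8 at -0.21 (SE 0.17) and Sox5 at -0.22 (SE 0.47). The upstream Sox6 starts NM_001025559 and NM_001025560 were at 0.21 (SE 0.40) and 0.14 (SE 0.33). Treated and untreated libraries did not overlap, in the lower direction, for 3 tested Sox intervals, those of Sox9, Sox10 and Sox12. Sox12 had been chosen for this fall, so its place among them supports nothing. The share of all promoters was 23.2%, or 5.71% with TMM scaling, where the same 3 Sox intervals were found. With TMM scaling Sox21 was higher in all treated libraries, as were 5.05% of promoters.

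The median log2 fold change was -0.21 over the 11 intervals and -0.21 over all promoters, and -0.010 and -0.0067 with TMM scaling. The Sox median thus lay close to that of all promoters, with Sox4, Sox9, Sox10 and Sox12 low within the set. The internal Sox6 start NM_001277328 (chr7:115801410-115801809) was not tested because of its few reads. It held 7.91, 5.44 and 10.1 calibrated reads without treatment and 1.07, 0.783 and 2.05 after tamoxifen, which stand for 7, 6 and 11 reads and for 1, 1 and 2 reads.

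**Figure D3:**
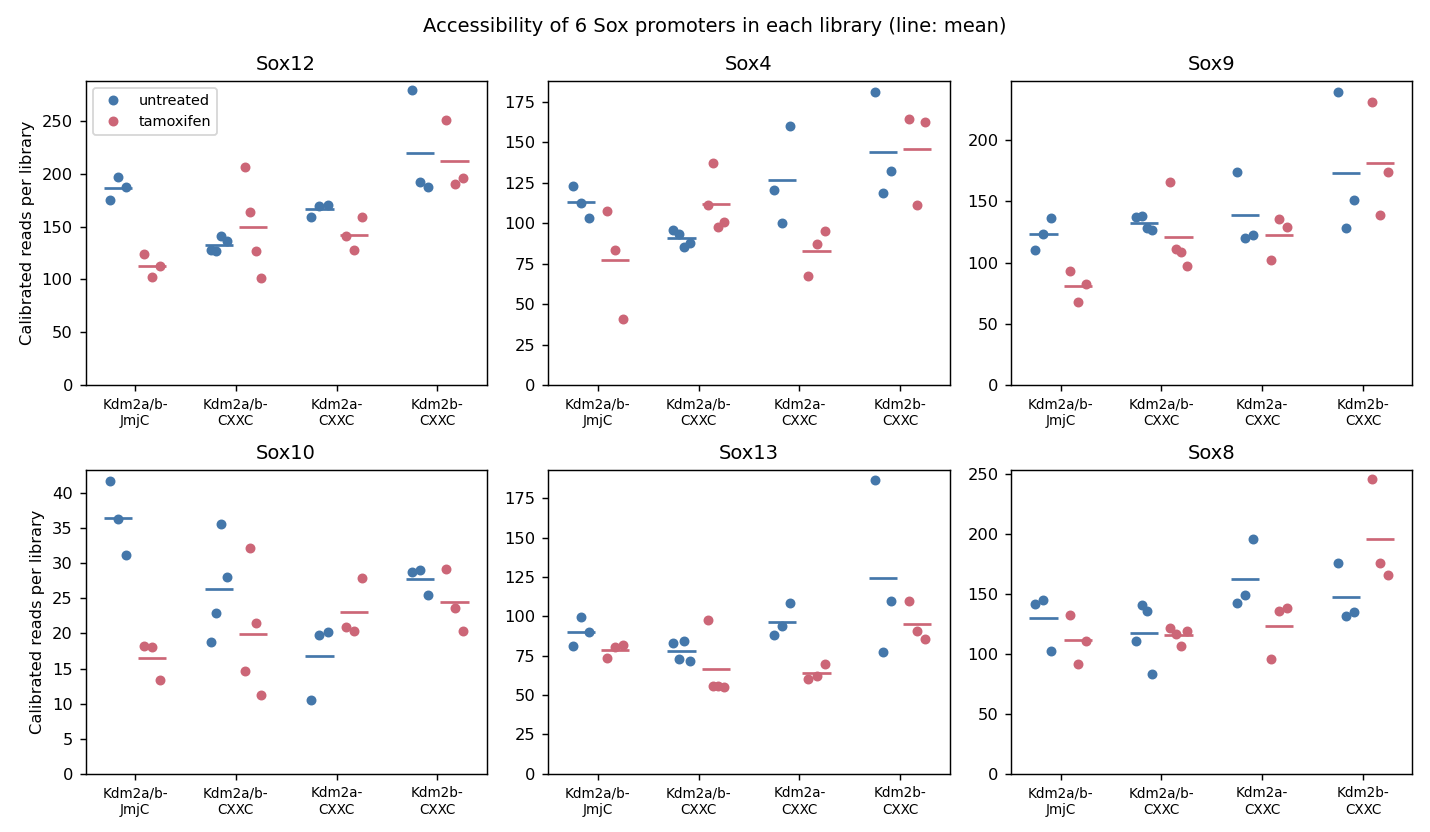
Calibrated reads in every library (points) with group means (lines) for 6 Sox promoters, untreated in blue and tamoxifen in red, in the 4 lines. Sox12 is lower in all treated Kdm2a/b-JmjC libraries, 103 to 124 against 175 to 197, while its groups overlap in the 3 CXXC lines.

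The CXXC lines played no part in choosing the genes, and the same promoters were tested in them. In Kdm2a/b-CXXC, Sox12 had 127, 126, 141 and 137 calibrated reads in untreated and 206, 164, 127 and 101 in treated libraries. The treated libraries spread on both sides of the untreated ones. Its log2 fold change was 0.12 (95% interval -0.24 to 0.48) and -0.05 without tamoxifen replicate 1.

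In Kdm2a-CXXC, Sox12 had 159, 169.8 and 170.2 calibrated reads without treatment and 141, 128 and 159 after tamoxifen, at -0.23 (95% interval -0.61 to 0.16), where the median promoter was at -0.18. In Kdm2b-CXXC it had 279, 193 and 187 without treatment and 251, 190.3 and 196 after tamoxifen, at -0.03 (95% interval -0.76 to 0.69). With TMM scaling the intervals for Sox12 were -0.20 to 0.27, -0.32 to 0.21 and -0.36 to 0.09 in these 3 lines. The difference from Kdm2a/b-JmjC was not tested, since the value of that line had served to choose the gene.

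No Sox interval was called in a CXXC line in these fits, which took no account of replicate numbers. In Kdm2a/b-CXXC, 0 of 12 tested Sox intervals and 0% of all promoters passed both thresholds with limma, and 0 had an unadjusted p under 0.05, against 4.65% of all promoters. In Kdm2a-CXXC, 0 of 12 were called, again against 0% of promoters, and 3 had an unadjusted p under 0.05, where 8.39% of promoters did. In Kdm2b-CXXC, 0 of 13 were called, against 0%, and 0 had an unadjusted p under 0.05, against 0.669%. Tests on the recovered reads with edgeR and DESeq2 likewise called 0 Sox intervals in each of these lines.

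The 3 with a small unadjusted p in Kdm2a-CXXC were Sox4, Sox13 and Sox8. Sox4 had 120.4, 100.5 and 160.1 calibrated reads in untreated and 67.1, 87.1 and 95.2 in treated libraries. All treated libraries were lower, at -0.59 (SE 0.21, adjusted p = 0.581 from limma). Sox13 had 87.9, 93.7 and 108 without treatment and 60.1, 61.9 and 69.8 after tamoxifen, also without overlap, at -0.59 (SE 0.22, adjusted p = 0.581). Sox8, a SoxE gene that acts beside Sox9 in the gonad, had 142, 149 and 196 and then 95.9, 136 and 138, at -0.40 (SE 0.20, adjusted p = 0.593). Part of each value is common to all promoters, whose median was -0.18 in this line. With TMM scaling Sox4 was at -0.42, Sox13 at -0.42 and Sox8 at -0.23, and the Sox8 groups overlapped. In the lower direction 3 intervals did not overlap, against 13.4% of promoters, and 2 with TMM scaling, against 6.24%. Reads at Sox8 are uncertain in any line, because its interval overlaps that of Cerox1, a non-coding RNA gene whose promoter interval is centred 124 bp away. The Sox4 and Sox21 intervals overlap the annotated genes Gm46405 and Gm4675.

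In that line Sox10 lay on the other side, with 10.5, 19.8 and 20.3 calibrated reads in untreated and 20.9, 20.32 and 27.9 in treated libraries. The groups were separated by a small margin, as they were in the higher direction for 1.12% of promoters (5.06% with TMM scaling), at 0.47 (SE 0.38, adjusted p = 0.658 from limma). Without untreated replicate 1, the lowest library, it was at 0.18, and without tamoxifen replicate 3 at 0.33. In Kdm2a/b-CXXC it was at -0.45 (SE 0.32) and in Kdm2b-CXXC at -0.19 (SE 0.44), with overlapping groups in both. Sox10 is read from 10.5 to 35.6 calibrated reads in these lines, and its fold changes carried a wide error.

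In Kdm2a/b-CXXC Sox4 was higher in all 4 treated libraries, with 112, 137, 97.8 and 101 calibrated reads against 95.8, 93.7, 85.3 and 88.1 without treatment. The difference was 0.29 (SE 0.20, adjusted p = 0.996 from limma), and the groups overlapped with TMM scaling. Of all promoters 1.8% were higher without overlap. In Kdm2b-CXXC the Sox4 groups overlapped at 0.02 (SE 0.37). The Sox4 difference was thus negative in Kdm2a-CXXC, as in Kdm2a/b-JmjC, and positive in Kdm2a/b-CXXC.

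On the calibrated scale the log2 fold change was below 0 for 83.4% of all promoters in Kdm2a/b-JmjC and 81.2% in Kdm2a-CXXC. The shares were 32% in Kdm2a/b-CXXC and 28.9% in Kdm2b-CXXC, and the share below 0 in all 4 lines was not counted. Sox13 was the only tested Sox interval with a negative log2 fold change in all 4 lines on the calibrated scale, which was noticed after its values were seen. Beside -0.19 in Kdm2a/b-JmjC and -0.59 in Kdm2a-CXXC, it was at -0.27 (SE 0.21, adjusted p = 0.996 from limma) in Kdm2a/b-CXXC and -0.29 (SE 0.36, adjusted p = 1.0) in Kdm2b-CXXC. With TMM scaling it was at 0.01 in Kdm2a/b-JmjC and at -0.36 in Kdm2a/b-CXXC, at -0.42 in Kdm2a-CXXC and at -0.40 in Kdm2b-CXXC, with adjusted p of 0.454, 0.758 and 0.535. On that scale Sox13 was thus negative in 3 lines, and Sox9 in 4, at -0.0019 and -0.014 in Kdm2a-CXXC and Kdm2b-CXXC. Single libraries weighed on these values. In Kdm2a/b-CXXC tamoxifen replicate 1 held 98.0 calibrated reads against 55.4 to 56.0 in the other 3 treated libraries, and in Kdm2b-CXXC the log2 fold change was 0.04 without untreated replicate 1.

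Sox9 was at -0.17 (SE 0.19) in Kdm2a/b-CXXC and at -0.17 (SE 0.20) in Kdm2a-CXXC, and at 0.09 (SE 0.37) in Kdm2b-CXXC. Its groups overlapped in all 3 lines, unlike in Kdm2a/b-JmjC. Sox11 was between -0.31 and 0.15 and Sox21 between -0.16 and 0.23 in the CXXC lines, with overlapping groups throughout. Sox5, a partner of Sox6 and Sox9 in cartilage, had the lowest value of any Sox interval in Kdm2b-CXXC, -0.85 (SE 0.50, adjusted p = 1.0 from limma). It rested on 49.6, 11.3 and 25.5 calibrated reads without treatment against 19.5, 8.87 and 13.1 after tamoxifen, and the groups overlapped. Without untreated replicate 1, the highest library, it was at -0.35, and without untreated replicate 2, the lowest untreated one, at -1.37. With TMM scaling the groups did not overlap, as for 6.53% of promoters, at -0.94 (SE 0.38, adjusted p = 0.539). The Sox8 promoter was higher there at 0.40 (SE 0.37, adjusted p = 1.0), and with TMM scaling all treated libraries were above the untreated ones, as for 5.9% of promoters. The upstream Sox6 starts overlapped between groups in all 4 lines.

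**Figure D4:**
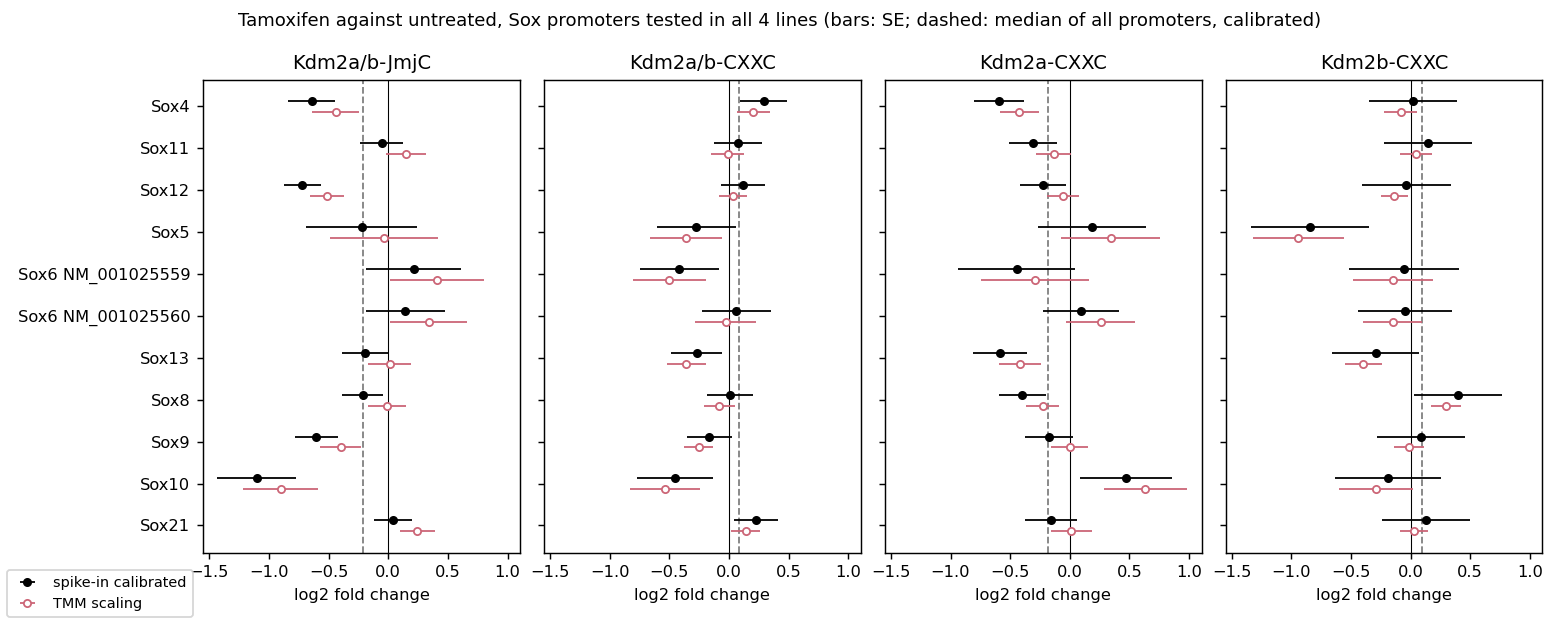
Log2 fold change of tamoxifen against untreated cells (horizontal axis, bars SE) for the 11 Sox intervals tested in all 4 lines, calibrated in black and with TMM scaling in red, with the calibrated median of all promoters dashed. Sox4, Sox9, Sox10 and Sox12 lie left of the dashed line in Kdm2a/b-JmjC, between -0.60 and -1.10, and bars are longest for Sox5, Sox6 and Sox10, which have the fewest reads.

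The precision differed between lines. The standard error for Sox12 was 0.19 in Kdm2a/b-CXXC and Kdm2a-CXXC and 0.37 in Kdm2b-CXXC, where it was 0.11 with TMM scaling. A change in Kdm2b-CXXC of the size seen for Sox12 in Kdm2a/b-JmjC could therefore not have been detected on the calibrated scale in this fit. The fit took no account of replicate numbers. The median over the Sox intervals was -0.080 in Kdm2a/b-CXXC beside 0.087 for all promoters, -0.27 beside -0.18 in Kdm2a-CXXC, and -0.035 beside 0.099 in Kdm2b-CXXC. The Kdm2a/b-CXXC median took in the internal Sox6 start NM_001277327, which had few reads and was at -0.32. With no filter on low counts the sign of this median turned, to 0.059 beside 0.091 for all promoters. With TMM scaling the medians of the Sox intervals were -0.17, -0.095 and -0.14, beside 0.0007, -0.0106 and -0.003 for all promoters.

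Whether the effect of tamoxifen differed among the 3 CXXC lines was tested in one limma fit over their 20 libraries. For 0 of the Sox intervals was the adjusted p under 0.05, and the same held for 0% of 19266 promoters. Sox4 alone among them had an unadjusted p under 0.05, as did 2.12% of promoters, and its adjusted p was 0.992 (limma F test). With TMM scaling the unadjusted p was under 0.05 for Sox4, Sox8 and Sox10, as it was for 1086 of 19266 promoters. The adjusted p of these Sox intervals were 0.712, 0.833 and 0.819 (limma F test).

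Other genes of the family and of the pathways these factors act in were counted as lists. Of all promoters, 0.0757% passed both thresholds in Kdm2a/b-JmjC and 0% in each CXXC line. None of the 9 tested promoters of the other Sox genes (among them Sox1, Sox2, Sox3, Sox7 and Sox17) passed both thresholds in a line. Their median was -0.16 in Kdm2a/b-JmjC, and in the CXXC lines it was 0.060 with both proteins targeted, -0.17 with KDM2A and 0.085 with KDM2B alone, and the lowest single value was -0.57 for Sox7 in Kdm2a/b-JmjC. Of the TCF and LEF genes, whose proteins share the HMG box, 0 of 6 promoters were called in any line, with a median of -0.38 and a lowest value of -0.62, at Tcf7l2, in Kdm2a/b-JmjC. Without tamoxifen replicate 1 of that line 1 of them, this start of Tcf7l2, passed both thresholds, as did 607 of 17920 promoters.

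Lists of genes on which SOX9, SOX10 and SoxC proteins are known to act were counted in the same way. The 7 promoters of cartilage genes, among them the collagen genes Col2a1 and Col9a1, were all below the median promoter in untreated cells of every line, and between 4 and 7 could be tested. The 11 promoters of neural crest and glial genes lay at a median percentile of 42.4 to 47.0, and between 8 and 10 could be tested. For the neuronal genes Dcx, Tubb3 and Stmn2, 2 of 3 promoters could be tested. In these lists 0 promoters were called in any line. The extreme values were 0.98 (SE 0.65) for a Col9a1 start and -1.17 for a Mitf start, both in Kdm2b-CXXC and both with few reads.

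The promoters whose accessibility varied most like that of Sox12 were sought over all 26 libraries, after TMM scaling and centring within each line, among 16030 promoters tested in every line. Trp53bp1 (Pearson's r = 0.659), Tafa5 (0.646) and Ccdc91 (0.646) were the most alike. They are the extremes among 16030 promoters, and whether unrelated promoters would reach such values was not tested. Of the other Sox intervals, Sox10 (0.456) and Sox9 (0.421) were most like Sox12, and Sox11, its SoxC relative, was at -0.315. These values include the shared change in Kdm2a/b-JmjC and describe 26 libraries that are not independent of it.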

How the data were processed

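Calibrated ATAC-seq libraries (26) of 4 mESC lines were analysed; 26 genomic DNA libraries were not. The authors aligned reads with Bowtie 2 to mm10 and dm6, removed multiply mapped, duplicate (SAMtools), blacklisted and mitochondrial reads, and counted mouse reads in promoter intervals. Each deposited library column is a signal, reads divided by a size factor from Drosophila reads corrected by genomic DNA. The deposited DESeq2 columns, the authors' log2 fold changes, the scores (standard error and statistic) and the p-values, hold their own comparison and were not used.

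All values (100%, tolerance 0.01 reads) came out as whole reads, which set the depth, the filter (edgeR 4.0.16 filterByExpr, minimum count 10) and the tests on reads. The main test was limma 3.58.1 with a mean-variance trend on log2(value + 1), a scale that understates changes of low promoters, per line, with Benjamini-Hochberg adjustment over all tested promoters; 95% intervals are from the same fit. Alternatives were TMM, median-of-ratios scaling, edgeR, DESeq2 1.42.0, no filter, a pseudocount of 5, a replicate block and leaving out each library. Fits were tested on simulated data. Symbols matched 99.1% of identifiers; sequence and exons are from GRCm38.p6 (RefSeq), the build of mm10, with 1-based coordinates; the promoter sequence of Sox10 is not reported here. Duplicates were removed without molecular identifiers.

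The members and lists were chosen with earlier results of these data known. All members are named in every line; genes of other lists only where extreme in the list or past both thresholds, and for Sox12 the 3 most similar promoters.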

Additional observations from a re-analysis of the deposited data

Results flagged for a closer look

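In Kdm2a/b-CXXC, the line with 4 libraries per group, 30 groups of Sox values were searched for a library that stood apart from the other 3, and 3 groups had one; chance flags about 1 in 20 groups. Tamoxifen replicate 1 held 128 calibrated reads at Sox11, where the nearest library had 93.4, and 98.0 at Sox13, where the nearest had 56.0. This replicate also had the highest calibrated total of its line, 2.04 M calibrated reads, against 1.33 to 1.68 M in the other treated libraries; its part in these values was not tested. Untreated replicate 3 held 87.1 at Sox11, below the nearest value of 96.7.

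Every treated library moved in opposite directions from the untreated mean at Sox4 in Kdm2a/b-JmjC (-0.64) and Kdm2a/b-CXXC (0.29), a difference of -0.93 on the log2 scale. The same was seen at Sox10 between Kdm2a/b-JmjC (-1.10) and Kdm2a-CXXC (0.47), a difference of -1.57. With TMM scaling the differences were -0.64 for Sox4, where the treated libraries no longer lay on opposite sides, and -1.54 for Sox10, where they still did. These differences were not tested.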

How the results depend on the processing

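The call on Sox12 in Kdm2a/b-JmjC depended on the scale: 0 Sox intervals were called there with TMM scaling, with median-of-ratios scaling or with DESeq2 on the recovered reads, and the median of the Sox intervals was -0.010 and -0.0075 with both scalings. With single libraries left out, between 0 and 4 were called, and between 0 and 607 of all promoters, the highest of both without tamoxifen replicate 1. In Kdm2a-CXXC the median was -0.095 and -0.091 with TMM and median-of-ratios scaling. Counts of 0 called Sox intervals in the CXXC lines, and of 0 differing among them, held under every other alternative, leaving out libraries included, with the exception of the block below. All signs that turned belonged to values that were called on neither scale. With TMM and median-of-ratios scaling, Sox11 (0.15 and 0.15) and Sox13 (0.012 and 0.015) turned positive in Kdm2a/b-JmjC, and Sox11 (-0.0098 and -0.011), NM_001025560 of Sox6 (-0.027 and -0.028) and Sox8 (-0.080 and -0.082; -0.022 with edgeR and -0.022 with DESeq2) turned negative in Kdm2a/b-CXXC. In Kdm2a-CXXC Sox21 (0.013 and 0.018) and Sox9 (0.0026, median-of-ratios) turned positive, and in Kdm2b-CXXC Sox4 (-0.083 and -0.086) and Sox9 (-0.014 and -0.017) turned negative.

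Leaving out single libraries turned the sign of further values. In Kdm2a/b-JmjC the ranges were -0.18 to 0.15 for Sox11, -0.15 to 0.57 for NM_001025559, -0.076 to 0.50 for NM_001025560 and -0.042 to 0.10 for Sox21. In Kdm2a/b-CXXC the ranges were -0.044 to 0.12 for Sox11, -0.051 to 0.29 for Sox12, -0.18 to 0.20 for NM_001025560 and -0.15 to 0.10 for Sox8. In Kdm2a-CXXC NM_001025560 ran from -0.056 to 0.27. In Kdm2b-CXXC they were -0.11 to 0.20 for Sox4, -0.10 to 0.29 for Sox11, -0.16 to 0.15 for Sox12, -0.18 to 0.095 for NM_001025559, -0.37 to 0.21 for NM_001025560, -0.19 to 1.07 for NM_001277326, -0.59 to 0.044 for Sox13, -0.10 to 0.35 for Sox9 and -0.16 to 0.30 for Sox21. Medians ran from -0.28 to -0.15 in Kdm2a/b-JmjC, -0.22 to -0.040 in Kdm2a/b-CXXC, -0.30 to -0.14 in Kdm2a-CXXC and -0.16 to 0.17 in Kdm2b-CXXC.

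The replicate numbers were not taken to pair the samples, since deviations of libraries with the same number correlated across promoters at 0.0725 or less, although in Kdm2a/b-JmjC every library correlated best with its own number. This correlation does not see a shift shared by all promoters, and calibrated totals had the same order by number in both groups of Kdm2a-CXXC (2.13, 2.30 and 2.51 M untreated, 1.76, 2.04 and 2.33 M treated) and of Kdm2b-CXXC (2.96, 1.75 and 2.12 M, then 3.19, 1.98 and 2.11 M). With a replicate block 1 Sox interval was called in Kdm2a-CXXC, Sox4 (adjusted p = 0.0397), where 188 promoters were called in place of 0. The block raised the promoters with an unadjusted p under 0.05 from 1488 to 3895 there and from 120 to 1785 in Kdm2b-CXXC. Low reads limited the internal Sox6 starts in every line. In Kdm2b-CXXC, fits without the block gave Sox12 a standard error of 0.37 for calibrated values and 0.11 after TMM scaling. Whether the wider error came from calibration or from a shift shared by libraries of the same number was not tested.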
